A study of Mus musculus with 24 samples.

Results

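Foxa3 binding in 1 line of induced hepatocyte-like (iHep) cells was compared between chromatin prepared with EGS and without it. The comparison took every library of line iHep_4a3 immunoprecipitated with a Foxa3 antibody, which is 3 of the 24 samples of the series. The title of 2 of them carries EGS (replicates 1 and 3), and the title of the other does not (replicate 2, called non-EGS here). Each library has 1 deposited peak list, and together the 3 lists hold 5609 peaks. A Flag list of the same line was left out.

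All 3 libraries are chromatin immunoprecipitation sequencing (ChIP-seq) of C57BL/6 cells that began as fibroblasts of embryos at 13.5 days and were infected with Foxa3 and Hnf4alpha. The 3 libraries therefore share the introduced factors as well as the antibody. The labels do not say whether the line is 1 clone, what promoter drives the introduced genes, or whether the replicate numbers are separate cultures. Hepatocytes of 10-week-old mice (EGS, numbered 4 in the title) and the Foxa1 line 4a1 and Foxa2 line 4a2, each infected together with Hnf4alpha, served for context. No value in the lists can check the cell type or the EGS label.

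Foxa3 is a forkhead transcription factor of liver and other endodermal tissues. Forkhead factors of this family can bind DNA that is wrapped in nucleosomes and are known for opening chromatin at liver genes. Hnf4alpha is a nuclear receptor that drives many hepatocyte genes. EGS is the usual abbreviation of an amine-reactive crosslinker that joins proteins to each other and is often added before formaldehyde, so that factors held to DNA through other proteins are also retained. The labels give neither the full name nor a dose.

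The EGS lists were far shorter than the non-EGS list and unlike each other. EGS replicate 1 held 1246 peaks and EGS replicate 3 held 46, against 4317 in the non-EGS list. The covered length was 236 kb in EGS replicate 1 and 8.5 kb in EGS replicate 3, against 1134 kb without EGS. Thus the non-EGS list had 3.46 times as many peaks as EGS replicate 1 and 93.8 times as many as EGS replicate 3. An exact two-sided permutation test over the 3 libraries gave p = 0.667 for the log10 peak count, and 0.333 is the smallest p this design allows. The lists carry no read counts, so depth could not be compared, and with 1 non-EGS library EGS, replicate number and the code in the title cannot be told apart. EGS replicate 1 carries the code R156 and EGS replicate 3 carries R170, while the non-EGS title has no such code. The labels do not say what these codes stand for. The code of EGS replicate 3 is also that of an EGS Foxa1 list of line 4a1, which has 542 peaks.

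Peaks were called chain peaks when they lay in a run of at least 4 peaks of their own list with gaps of at most 10 kb, and single peaks when no other peak of the list lay within 10 kb. Runs of 2 or 3 peaks were kept apart as short runs. EGS replicate 1 had 341 chain peaks (27.4%), 248 peaks in short runs and 657 single peaks (52.7%). EGS replicate 3 had 15 chain peaks (32.6%), 20 in short runs and 11 single peaks (23.9%). The non-EGS list had 1314 chain peaks (30.4%), 1205 in short runs and 1798 single peaks (41.6%). The chain shares of the EGS lists thus lay on either side of the non-EGS share (exact permutation p = 1 over the 3 libraries). The chain shares of EGS replicate 1 and of the non-EGS list fell as each was cut to fewer top-scoring peaks. Among the 1246 top-scoring non-EGS peaks, as many as in EGS replicate 1, 14.2% were in chains. With only the non-EGS list cut in this way, the mean EGS share was 15.8 percentage points above the non-EGS share. With the 300 top-scoring peaks of each, the chain shares were 5% in EGS replicate 1 and 2.67% without EGS, and with the top 46 both were 0%. EGS replicate 3, whose whole list is 46 peaks, stood at 32.6%.

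**Figure D1:**
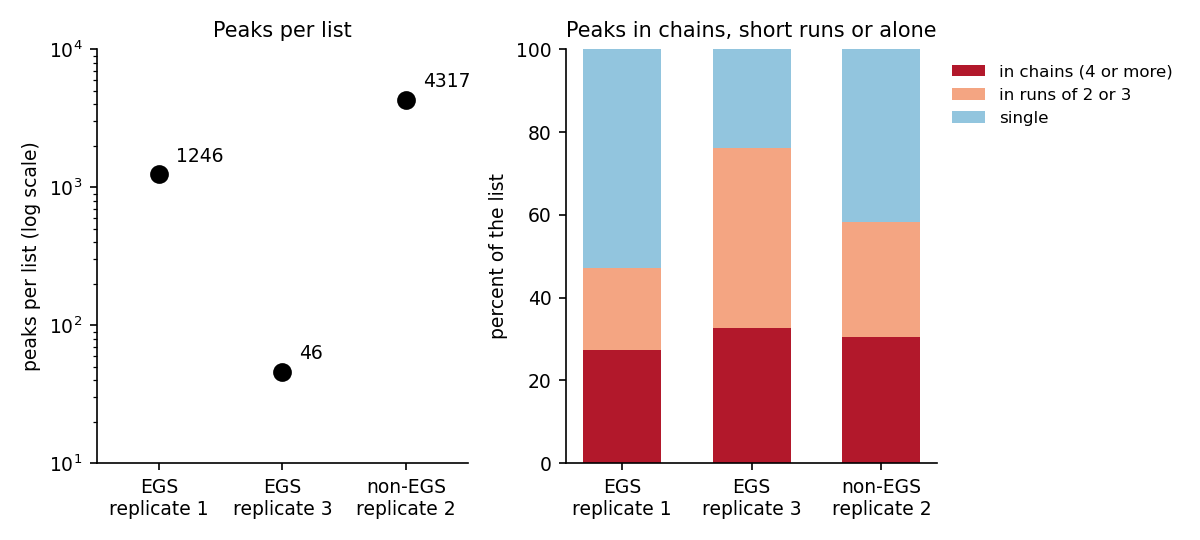
Number of peaks in each list on a log scale (left) and the percent of each list in chains, in short runs and alone (right), for EGS replicate 1, EGS replicate 3 and non-EGS replicate 2. The lists hold 1246, 46 and 4317 peaks, and their chain shares lie between 27.4% and 32.6%.

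Peaks of the EGS lists were narrower. The median width was 149 bp in EGS replicate 1 (quartiles 117 to 208 bp) and 147.5 bp in EGS replicate 3, against 180 bp in the non-EGS list (quartiles 141 to 262 bp). The narrowest peak was 103 bp and 97 bp in the EGS lists and 127 bp without EGS. The widest was 2262 bp in EGS replicate 1 and 606 bp in EGS replicate 3, against 9304 bp without EGS. Both EGS medians lay below the non-EGS median, and the exact permutation test over the 3 libraries gave its smallest possible p, 0.333. Over the 3 contrasts tested this way, for number, width and chain share, every p adjusted by Benjamini-Hochberg was 1.

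About 1 in every 2 peaks of EGS replicate 1 was also found without EGS. Peaks with at least 1 bp in common with a peak of another list were called shared. By this measure 635 of the 1246 peaks of EGS replicate 1 were shared with the non-EGS list, 51% (exact 95% interval 48.1 to 53.8%). Of the 46 peaks of EGS replicate 3, 43 were shared with the non-EGS list, 93.5% (82.1 to 98.6%). In the other direction, 545 of the 4317 non-EGS peaks were found in at least 1 EGS list, 12.6% (11.6 to 13.7%). EGS replicate 1 gave 543 of these, also 12.6%, and EGS replicate 3 gave 25, 0.579%. Between the EGS lists, 39 of the 46 peaks of replicate 3 were found in replicate 1, 84.8% (71.1 to 93.7%). That overlap is 32 peaks, or 2.57%, of EGS replicate 1. Such intervals allow for counting error alone, and neighbouring peaks, which are not independent, make them too narrow.

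Sharing followed the authors' score, column 5 of each list, which served here for ranks inside 1 list and nothing else. In EGS replicate 1, 75.6% of the top 20% was found without EGS (69.8 to 80.8%, n = 250). The following steps of 20% gave 57.0%, 47.0% and 37.8%, and the bottom 20% gave 37.3% (31.3 to 43.7%, n = 249). In the non-EGS list 32.1% of the top 20% was found in an EGS list (29.0 to 35.3%, n = 864). The following steps of 20% gave 12.2%, 8.10% and 5.68%, and the bottom 20% gave 5.10% (3.73 to 6.78%, n = 863). The step was steepest at the head of the non-EGS list, where 200 of the 432 peaks of the top decile (46.3%) were shared. The difference between the top and the bottom 20% was 38.3 percentage points in EGS replicate 1 (29.9 to 45.8) and 26.96 in the non-EGS list (23.5 to 30.4). Scores are heavily tied, with 143 distinct values in EGS replicate 1, 27 in EGS replicate 3 and 493 in the non-EGS list. With ties ordered the other way the 2 differences were 38.7 and 26.96. Rank also carried over weakly among the shared sites. Over 458 pairs in which 1 peak of EGS replicate 1 met 1 non-EGS peak and no other, the Spearman rho of the scores was 0.30, as a description over peaks.

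**Figure D2:**
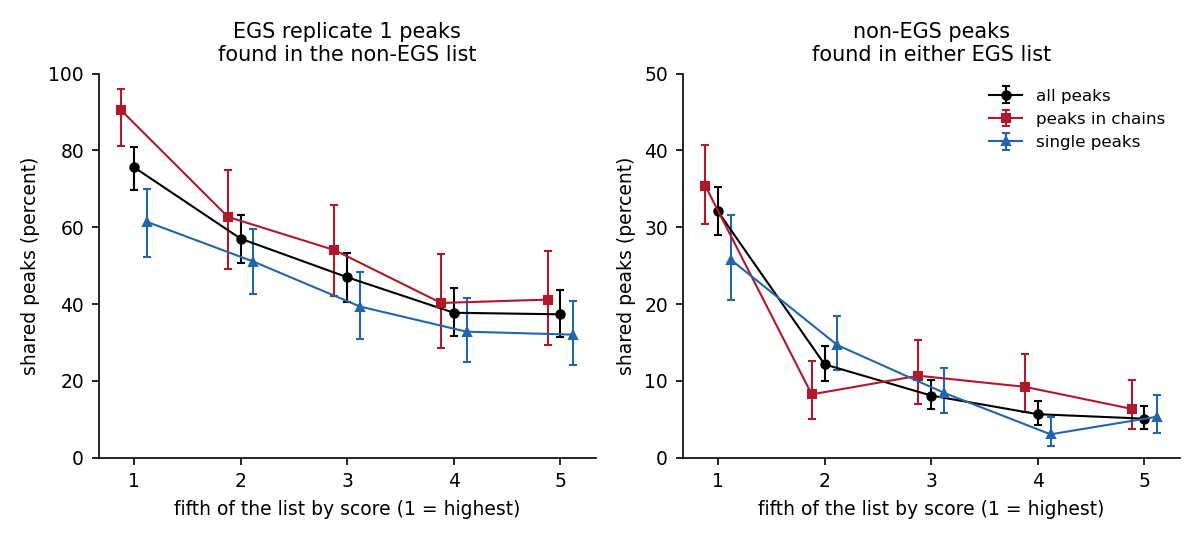
Percent of peaks shared, in 5 steps of 20% by score (1 is the highest), for EGS replicate 1 peaks found in the non-EGS list (left, axis to 100%) and non-EGS peaks found in either EGS list (right, axis to 50%). Points are all peaks, peaks in chains and single peaks, and bars are exact 95% intervals. In EGS replicate 1 the chain points fall to 41.2% in the bottom 20%, against 90.4% in the top 20%.

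Chain peaks of EGS replicate 1 were shared more often than its single peaks. Of 341 chain peaks 198 were found without EGS (58.1%, 52.6 to 63.4%), and of 657 single peaks 285 were (43.4%, 39.6 to 47.3%), a difference of 14.7 percentage points (8.15 to 21.0). Peaks of short runs stood at 61.3%, beside the chains. Split by place, inside or outside the span of a non-EGS chain, the order of chain and single peaks was the other way. Inside, 161 of 199 chain peaks (80.9%) and 36 of 38 single peaks (94.7%) were shared. Outside, 37 of 142 chain peaks (26.1%) and 249 of 619 single peaks (40.2%) were. The higher share of chain peaks over the whole list thus went with their place in non-EGS chains. Within the top 20% by score 66 of 73 chain peaks (90.4%) and 78 of 127 single peaks (61.4%) were shared. In the bottom 20% these shares were 41.2% and 32.1%, and their intervals overlapped. In EGS replicate 3 all 15 chain peaks and all 11 single peaks were shared, and the 3 unshared peaks lay in short runs. In the non-EGS list 207 of 1314 chain peaks (15.8%) and 189 of 1798 single peaks (10.5%) were found in an EGS list, 5.24 points apart (2.84 to 7.70). With each list cut to its top-scoring 50% and peak classes set anew in the cut lists, the difference was -0.23 points (-3.70 to 3.66). By the classes of the full list, 35.4% of chain peaks and 25.8% of single peaks in its top 20% by score were shared. Only in the next 20% was the order the other way, at 8.26% and 14.7%. Without EGS replicate 3 the non-EGS shares were 15.6% and 10.5%.

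Shared peaks were also wider. In EGS replicate 1 the 635 shared peaks had a median width of 168 bp and the 611 unshared ones 132 bp. In the non-EGS list the 545 shared peaks had a median of 270 bp and the 3772 unshared ones 173 bp. Among single peaks alone these medians were 152 and 127 bp in EGS replicate 1, and 191 and 157 bp in the non-EGS list, so the gap was smaller there. EGS replicate 3 ran the other way, with 143 bp for its 43 shared and 161 bp for its 3 unshared peaks, too few to compare. Width and score rose together within each list (Spearman rho 0.36 over the 1246 peaks of EGS replicate 1 and 0.34 over the 4317 non-EGS peaks). Both were therefore looked at together. In the widest 20% of EGS replicate 1 (227 bp or more), 82.8% of peaks in the upper 50% by score and 62.1% in the lower 50% were shared. In its narrowest 20% (112 bp or less) the shares were 30.4% and 30.0%. In the non-EGS list the widest 20% gave 32.3% and 13.5%, and the narrowest 20% 14.1% and 3.37%. Among the narrowest EGS peaks, then, the share was alike at high and low score, whereas in the non-EGS list it was higher at high score at every width.

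**Figure D3:**
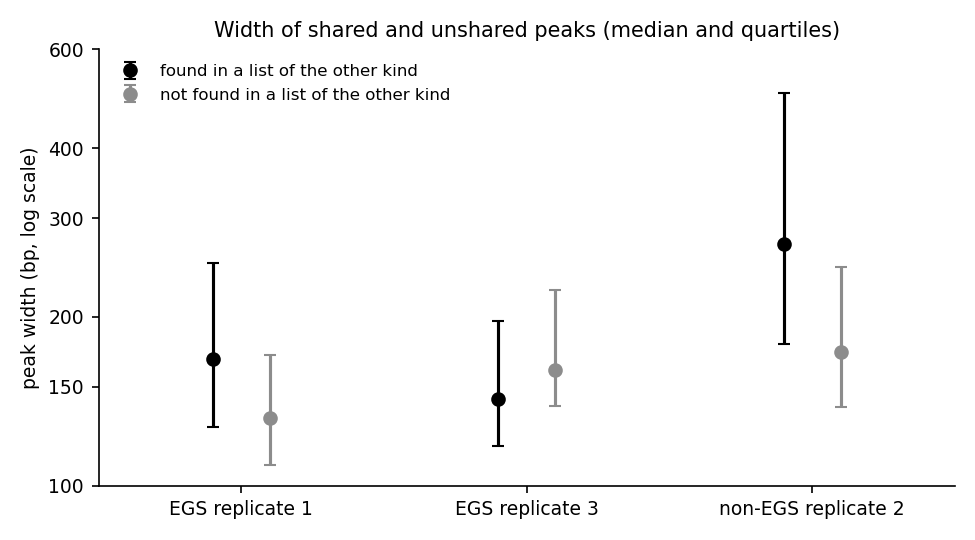
Peak width in bp on a log scale, as the median (point) and quartiles (bars), of peaks found (black) and not found (grey) in a list of the other kind. Medians are 168 and 132 bp in EGS replicate 1, 143 and 161 bp in EGS replicate 3, whose grey point stands for 3 peaks, and 270 and 173 bp in the non-EGS list.

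At the same site the EGS peak was usually the narrower one. In the 458 exclusive pairs the median width was 161 bp in EGS replicate 1 and 242.5 bp without EGS, and the non-EGS peak was the wider in 350 pairs (76.4%). Peak centres lay a median of 47 bp apart. In 19 such pairs of EGS replicate 3 the medians were 130 bp with EGS and 805 bp without it, and the non-EGS peak was wider in all 19. Some broad non-EGS peaks held several EGS peaks. Of the 543 non-EGS peaks that overlapped EGS replicate 1, 59 overlapped 2 or more of its peaks, and these 59 had a median width of 1055 bp. Only 15 peaks of EGS replicate 1 overlapped more than 1 non-EGS peak, and none overlapped more than 2. The top-scoring non-EGS peak, chr19:5838626-5845582 (mm9, 6957 bp), held 13 peaks of EGS replicate 1 and 6 of EGS replicate 3. The widest non-EGS peak, chr19:5794621-5803924 (9304 bp), held 6 and 9. A peak at chr3:96361534-96366875 (5342 bp, rank 7 of the non-EGS list) held 10 and 2. The second widest, chr10:21713264-21721506 (8243 bp, rank 17), held 1 and 0. Some sites thus count as 1 peak without EGS and as several with it.

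The 45 chains of EGS replicate 1 had a median of 6 peaks over 6.95 kb, and the 201 non-EGS chains had a median of 5 peaks over 4.51 kb. Peaks covered a median of 22.5% of an EGS replicate 1 chain and 40.2% of a non-EGS chain, so gaps took up more of the chains with EGS. Each of the 45 chains of EGS replicate 1 held at least 1 non-EGS peak, and 31 overlapped a non-EGS chain. Of the 201 non-EGS chains 100 held a peak of EGS replicate 1, 30 overlapped one of its chains, and 101 held no peak of that list. Chains of EGS replicate 1 thus each met a non-EGS peak, whereas about 1 in every 2 non-EGS chains met no peak of that list. The non-EGS list holds 4317 peaks against 1246, and the part of list length and chain span in this was not tested.

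The largest chain of EGS replicate 1, chr19:5831371-5845425, had 22 peaks, of which 19 were shared. EGS replicate 3 had 6 peaks there and the non-EGS list had 10. The second, chr17:33908122-33918401, had 20 peaks, of which 5 were shared, and the non-EGS list had 4 there. The third, chr10:117122903-117147214, had 18 peaks, of which 1 was shared, and the non-EGS list had 3 peaks there. In this last area the EGS peaks were spread over 24.3 kb while the non-EGS peaks lay at its far end. EGS replicate 3 had only 2 chains, of 9 peaks (chr19:5794651-5802249) and 6 peaks (chr19:5840185-5845397). All 15 of these peaks fell within just 2 broad non-EGS peaks.

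The largest non-EGS chain, chr19:5794052-5850312, held 29 peaks of EGS replicate 1 and 17 of EGS replicate 3, against 35 non-EGS peaks over 56.3 kb. Of these 35, 9 were shared. The second, chr6:52171874-52211547, held no peak of either EGS list, against 34 non-EGS peaks over 39.7 kb. Its best peak stood at the 94.7th percentile of the non-EGS scores. The third, chr9:69859050-69902144, held 1 peak of EGS replicate 1 and none of EGS replicate 3, against 22 non-EGS peaks, of which 2 were shared. The non-EGS chains thus ranged from areas with dense EGS binding to areas where the EGS lists were empty.

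**Figure D4:**
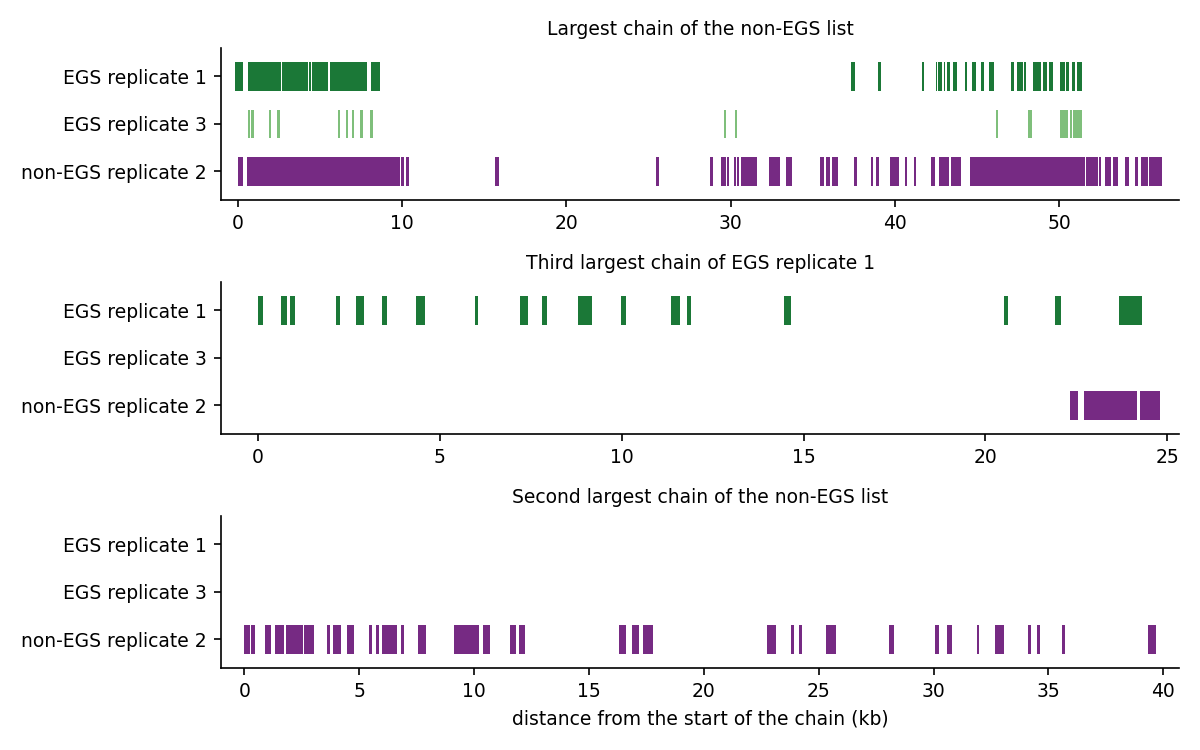
Peaks of EGS replicate 1, EGS replicate 3 and the non-EGS list, each drawn as a bar to scale along 3 chains, by distance in kb from the start of the chain. In the top panel 29, 17 and 35 peaks lie in the largest non-EGS chain, in the middle panel 18 EGS replicate 1 peaks lie beside 3 non-EGS peaks, and in the bottom panel 34 non-EGS peaks stand with no EGS peak.

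The unshared peaks fell into those next to a site of the other list and those far from any. Of the 611 unshared peaks of EGS replicate 1, 146 lay within 1 kb of a non-EGS peak, 118 between 1 and 10 kb, and 347 farther away. Unshared chain peaks were mostly near, with 66 of 143 within 1 kb of a non-EGS peak and 14 beyond 10 kb. Unshared single peaks were mostly far, with 303 of 372 beyond 10 kb and a median distance of 113 kb. In the non-EGS list 1553 of the 1609 unshared single peaks lay more than 10 kb from any EGS peak, while 634 of the 1107 unshared chain peaks did. Counting a peak within 1 kb as shared raised the shared part of EGS replicate 1 to 62.7% and that of the non-EGS list to 21.7%.

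The 46 peaks of EGS replicate 3 lay mostly on the strongest non-EGS sites. Of these 46, 38 were in both other lists, 5 in the non-EGS list alone, 1 in EGS replicate 1 alone and 2 in neither. For 38 of them the best non-EGS partner stood in the top decile of the non-EGS scores, and the median partner stood at the 99.4th percentile. In EGS replicate 1 the median partner stood at the 93.6th percentile, and 25 of the 46 had one in the top decile. They were unevenly placed, with 17 peaks on chromosome 19, 7 on chromosome 13 and 6 on chromosome 11. The 43 shared ones fell on 25 non-EGS peaks. A pair on chromosome 19, chr19:5823639-5823752 and chr19:5824297-5824412, was the exception in rank. Their non-EGS partners stood at ranks 4010 and 4142 of 4317, although the second EGS peak of the pair was among 4 tied at ranks 6 to 9 of EGS replicate 3.

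The 3 peaks of EGS replicate 3 without a non-EGS peak each lay within 10 kb of one. Those at chr11:115881334-115881618 and chr11:115882046-115882161, ranked 34 and 38 of the 46, were in neither other list, and the nearest non-EGS peak was 3383 and 2840 bp away. The peak at chr6:51409584-51409744, ranked 35, overlapped a peak of EGS replicate 1. It gave the only region found in both EGS lists and not in the non-EGS list, chr6:51409428-51409782 (355 bp), with its nearest non-EGS peak 7130 bp away. The region stood at the 52.0th percentile of EGS replicate 1 and the 26.1st of EGS replicate 3, so it was of middle rank in the first and low in the second.

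Overlapping peaks of the 3 lists merged into 4915 regions. Only 23 were found in all 3 lists, and 18 of these held a chain peak. EGS replicate 1 and the non-EGS list shared 505 more, and EGS replicate 3 and the non-EGS list shared 2. There were 610 regions in EGS replicate 1 only, 2 in EGS replicate 3 only, and 3772 in the non-EGS list only. The 23 common regions had a median width of 1056 bp, against 310 bp for the 505.

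By mean score percentile the leading region of all 3 lists was chr17:35848274-35849137 (864 bp). It was the top peak of both EGS lists and stood at the 99.1st percentile without EGS, and all 6 lists of lines 4a1 and 4a2 held it too. The second was the broad peak at chr19:5838626-5845582, at the 96.3rd percentile in EGS replicate 1, the 97.8th in EGS replicate 3 and the 100th without EGS. The third was chr13:23830434-23832145, at the 98.3rd, 95.7th and 99.1st percentiles of the same lists. The fourth, chr11:69571649-69572453, stood at the 98.8th, 93.5th and 99.8th, and the fifth, chr11:101506278-101507869, at the 99.9th, 91.3rd and 99.8th. Apart from the first, none of these 5 was held by a list of line 4a1 or 4a2. In every list these 5 stood at or above the 91.3rd percentile.

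Each kind of list also had some isolated strong sites of its own, but most isolated sites were not strong. Of 303 single peaks of EGS replicate 1 with no non-EGS peak within 10 kb, 17 were in the top decile of its scores. Their median stood at the 37.6th percentile. Of 1553 non-EGS single peaks with no EGS peak within 10 kb, 59 were in the top decile, and the median stood at the 48.8th. The leading single peak of EGS replicate 1 with no non-EGS peak within 10 kb was chr4:3762493-3762769, at the 98.1st percentile. It was followed by chr11:53583600-53583854 at the 96.7th, chr1:186553425-186553661 at the 96.3rd, chr16:11144085-11144248 at the 96.1st and chr16:57391634-57391751 at the 95.3rd. Of these, the chromosome 1 site was found in 5 of the 6 lists of lines 4a1 and 4a2, and each of the chromosome 16 sites in 1. Without EGS the leading single peak with no EGS peak within 10 kb was chr11:83084782-83085429, at the 97.8th percentile. A peak on chromosome 18 stood level with it, followed by chr17:23940199-23940369 at the 97.6th, chr6:47870536-47870798 at the 97.5th and chr5:65745396-65745630 at the 97.3rd. Those on chromosomes 6 and 5 were found in 4 and 6 lists of lines 4a1 and 4a2.

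Other lists of the series gave a measure that the split into shared and specific did not use. Of all 4915 regions 4.35% overlapped a peak of the hepatocyte Foxa3 list, which was made with EGS. The share was 19.1% for regions found with and without EGS (101 of 530), 4.08% for EGS-only regions (25 of 613) and 2.33% for non-EGS-only regions (88 of 3772). Among regions with a chain peak it was 32.1% for those found with and without EGS and 5.44% for the 1250 of 1 kind, a difference of 26.7 points (20.6 to 33.3). Among regions of single peaks only it was 5.23%, 2.69% and 0.93% for the 3 classes. Of the 23 regions of all 3 lists, whose median width was 1056 bp, 19 were on a hepatocyte Foxa3 peak (82.6%, 61.2 to 95.05%). Taken by their own narrower bounds, 18 of the 46 peaks of EGS replicate 3 were on one. Regions found with and without EGS thus met hepatocyte Foxa3 peaks most often, and 69 of their 101 such regions held a chain peak. Region width moves with class as well, since the regions of 1 kind are narrower (medians of 132 bp in EGS replicate 1 only and 173 bp in non-EGS only), and its part in the result was not tested. The hepatocyte Foxa1 and Foxa2 lists held 0.793% of all regions (39), and 2 of those held a chain peak. These lists have only 166 and 244 peaks, against 1091 in the hepatocyte Foxa3 list. Of these, 87, 73 and 106 peaks lay in stretches where chains of at least 2 hepatocyte lists overlap. The part of list length and make-up in the lower share was not tested.

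The Foxa1 and Foxa2 lines were looked at in the same way. A peak in any of the 6 lists of lines 4a1 and 4a2 was found at 17.2% of all regions. It was found at 24.9% of all regions of single peaks only and at 8.53% of all regions with a chain peak. For regions of single peaks only the share was 39.5% where both kinds of list held them (68 of 172), 41.4% where only EGS lists did (154 of 372) and 19.5% where only the non-EGS list did (314 of 1609). EGS-only and non-EGS-only single regions thus differed by 21.9 percentage points (16.6 to 27.3). Most of this overlap was with 1 long list, the non-EGS list of line 4a2, which has 11408 peaks. By itself it overlapped 785 of the 845 regions found in any of the 6 lists, and 131 of the 154 EGS-only single ones. For regions with a chain peak the shares were 11.2%, 3.50% and 8.67% for the same classes. Single EGS sites missing from the non-EGS list therefore recurred in the 6 lists at a share whose interval (36.3 to 46.6%) overlapped that of the shared ones (32.2 to 47.3%), whereas chain sites seldom recurred there. The EGS lists of those lines alone held 10.2% of all regions and 16.4% of single ones. Against them the shares of single regions were 38.4% for both kinds, 29.3% for EGS only and 11.1% for non-EGS only. Against the non-EGS lists of those lines alone, which held 16.3% of all regions and 23.6% of single ones, these shares were 37.8%, 37.9% and 18.8%. All 372 of the EGS-only single regions come from EGS replicate 1, so this result has no second EGS library. Among the 303 single peaks of EGS replicate 1 that lay over 10 kb from any non-EGS peak, 142 (46.9%, 41.1 to 52.7%) were on a peak of line 4a1 or 4a2. Among the 1553 such non-EGS peaks, 308 (19.8%, 17.9 to 21.9%) were.

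**Figure D5:**
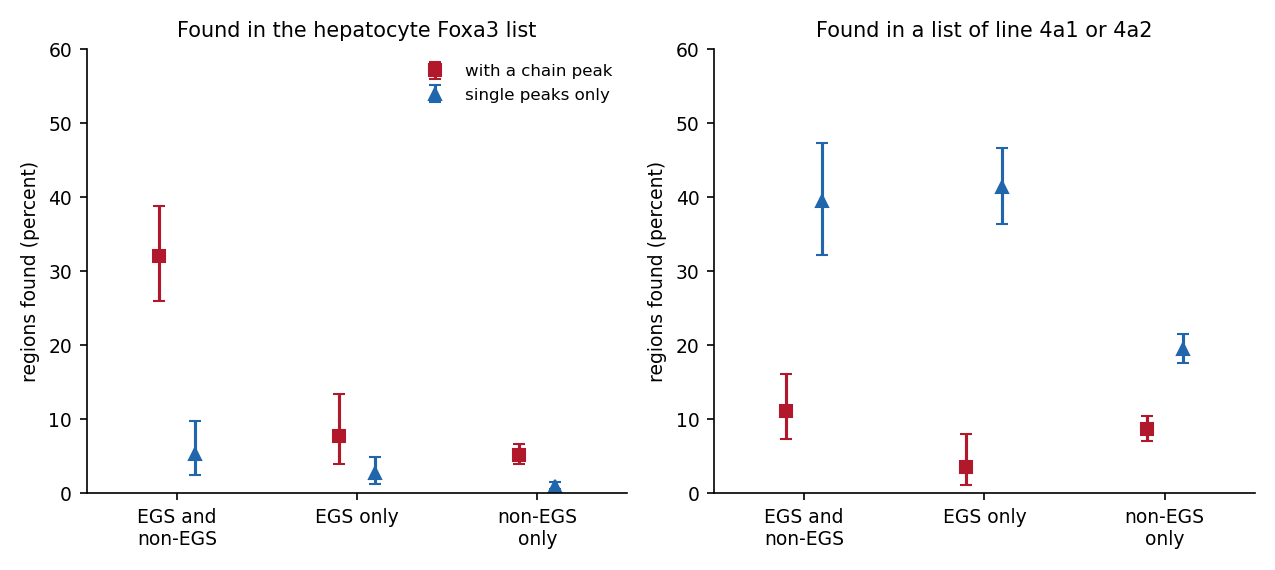
Percent of merged regions that overlap a peak of the hepatocyte Foxa3 list (left) or of any list of lines 4a1 and 4a2 (right), for regions found with and without EGS, with EGS only and without EGS only. Squares are regions with a chain peak, triangles regions of single peaks only, and bars exact 95% intervals. Chain regions found both ways stand highest on the left (32.1%), and single EGS-only regions stand at 41.4% on the right, above the 19.5% of non-EGS-only ones.

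The contrast between EGS and non-EGS was then set beside those of the other lines, which also have 2 EGS lists and 1 non-EGS list each. On the log10 scale the mean difference in peak count, EGS minus non-EGS, was -1.26 in line 4a3, -0.68 in line 4a1 and -1.06 in line 4a2. Over the 3 lines the mean difference was -0.999 (exact permutation within lines, 27 assignments, p = 0.037, the smallest possible, adjusted p = 0.056 over 3 measures). Every EGS list was shorter than the non-EGS list of its line. The non-EGS lists of lines 4a1 and 4a2 carry the codes R225 and R215, which no EGS list carries, and that of line 4a3 carries none. EGS and the code in the title therefore cannot be told apart in any of the 3 lines. For the log10 median width the differences were -0.08, -0.46 and -0.52 in lines 4a3, 4a1 and 4a2, with a mean of -0.36 and the same p-values. The gap was smaller in line 4a3, where non-EGS peaks were 1.21 and 1.22 times as wide as those of its EGS lists, against 2.89 to 3.38 times in the other lines. Its narrowest non-EGS peak was 127 bp, against 317 and 320 bp in the non-EGS lists of lines 4a1 and 4a2. Those 2 values exceed the upper quartiles of the EGS lists, 197 and 199.75 bp in line 4a1 and 185 and 169.25 bp in line 4a2. The part of these narrowest widths in the width differences and their p-values was not tested. The chain share differed by -0.45 percentage points in line 4a3, 8.84 in line 4a1 and -1.64 in line 4a2 (mean 2.25, p = 0.741, adjusted p = 0.741, exact permutation). The value of line 4a1 rests on its EGS replicate 2, at 17.5 points against 0.19 for its EGS replicate 1. Of the 542 peaks of that replicate, 92 lay in 4 dense blocks where hepatocyte lists also have chains. Without it the mean over the lines was -0.63 (exact permutation p = 0.778, 18 assignments). The non-EGS list of line 4a3 had 30.4% of its peaks in chains, against 0.233% in line 4a1 and 2.07% in line 4a2.

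The share of EGS peaks found again without EGS was 51.0% and 93.5% in line 4a3, against 61.6% and 58.5% in line 4a1 and 87.6% and 82.7% in line 4a2. The mean of line 4a3 minus that of the others was -0.36 percentage points (exact permutation over the 6 EGS lists, 15 assignments, p = 1). The top 20% by score exceeded the bottom 20% in this share by 38.3 and 11.1 percentage points in line 4a3, 24.5 and -19.0 in line 4a1, and 3.73 and 0 in line 4a2. The 11.1 is that of EGS replicate 3, at 100% against 88.9%. Its list of 46 peaks is too short for steps of 20%, yet this value enters the mean of line 4a3. The mean difference of 22.4 points was within the spread between lists (exact permutation p = 0.267, adjusted p = 0.533 over the 2 measures, smallest possible p = 0.067). In both tests the 2 EGS lists of a line were set against the same non-EGS list. The 6 lists are therefore not independent, and these p-values do not measure a spread between lines.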

How the data were processed

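The data are ChIP-seq peak lists on build mm9, 1 per library. The submitters' processing notes name MACS2 2.1.0, BWA 0.6.2 and bedtools 2.16.2, with no role or setting. Each deposited list gives position, name and a score by the authors on an unstated scale. The score was used to rank peaks within a list. Whether input was subtracted is not stated, nor are threshold and depth.

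Overlaps were computed in Python 3.11.15 (pandas 2.3.3, numpy 2.4.6, scipy 1.17.1, matplotlib 3.10.9). Functions for overlap and chains were tested on simulated lists. Intervals on shares are exact Clopper-Pearson at 95%. Those on differences combine Wilson intervals. Libraries were compared by exact two-sided permutation. Nothing says that replicate numbers are separate cultures, so p-values measure only a spread that may be technical. Members, lists and settings were chosen with earlier results of these data known. Named regions are the 5 leading regions of each class by score percentile, every EGS replicate 3 peak without a non-EGS peak, and the 3 chains with most peaks per list. Regions named for width, for peaks held or for low rank were chosen after their values were seen. No annotation or genome of mm9 was used here, so peaks are given by position.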

Additional observations from a re-analysis of the deposited data

How the results depend on the processing

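No paired analysis was possible because EGS replicates 1 and 3 and non-EGS replicate 2 share no number. In all 97 alternatives were run over 20 results, and 68 counted as the same. For results tested by permutation this meant the same direction and side of 0.05, whatever the size. For the others it meant a value within the main interval and, for differences, no reversed sign. The chain share of EGS minus non-EGS lists, -0.45 points, reversed to 0.14 with a gap of 5 kb and 0.90 with at least 3 peaks. It was 6.70 with at least 6 peaks and 15.8 with the non-EGS list cut to the length of EGS replicate 1. With 1 EGS list left out it was -3.07 and 2.17, so it has no stable direction. The share of EGS replicate 1 found without EGS, 51%, moved to 47.0% with an overlap of 50% of the narrower peak, 62.7% within 1 kb, 54.1% in the top-scoring 50% and 34.0% against a non-EGS list of equal length. For EGS replicate 3 equal length gave 67.4%. The non-EGS share, 12.6%, moved to 11.4% with 50% overlap and 21.7% within 1 kb, and ranged from 0.579 to 12.6% with 1 EGS list left out.

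Chain minus single sharing moved within 1 kb, to 27.04 points in EGS replicate 1 and 20.7 in the non-EGS list. In the non-EGS list it reversed to -0.23 with each list cut to its top-scoring 50% and peak classes set anew. With single peaks only, top minus bottom 20% by score was 29.4 points in EGS replicate 1 and 20.4 in the non-EGS list, and shared minus specific width was 25 and 34 bp. Within 1 kb the non-EGS width difference was 54 bp, and with 50% overlap that of EGS replicate 3 reversed to 9 bp. Over the lines, leaving out 1 EGS list of line 4a3 gave -1.24 and -0.76 for the count and -0.36 and -0.35 for the width, both at p = 0.056 by exact permutation, the smallest that 18 assignments allow. The chain share over the lines, 2.25 points, was 1.38 and 3.12 without one of these and reversed to -0.63 without EGS replicate 2 of line 4a1. Hepatocyte Foxa3 overlap of chain regions, shared minus specific, 26.7 points, became 37.6 in the top-scoring 50%, and 60.1 and 26.96 with EGS replicate 1 or 3 left out. Alternatives on other lists, tie order, left-out lists over the lines (also of line 4a1) and top-scoring chains were chosen after seeing the data. Without EGS replicate 1 no EGS-only single region is left, and the top 50% of EGS replicate 3 has no chain, so these gave no value. Unknown depth limits every comparison of list length.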

Other observations

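Chain peaks were counted by chromosome, without regard to chromosome length or to peaks outside chains. EGS replicate 1 had the most chain peaks on chromosome 13 (47 peaks in 7 chains) and chromosome 10 (37 in 3), and both chains of EGS replicate 3 were on chromosome 19 (15 peaks). The non-EGS list had the most on chromosome 6, in 21 chains, and chromosome 7 (123 peaks in 18). The 3 lists thus led with different chromosomes. The 4 dense blocks on chromosomes 9, 10, 11 and 17 where chains of at least 2 hepatocyte Foxa lists overlap held 4 peaks of EGS replicate 1, 0 of EGS replicate 3 and 1 of the non-EGS list.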
